A study of Mus musculus with 8 samples.

Results

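Invariant natural killer T (iNKT)-like cells of the spleen and tumors were described from single-cell T cell receptor (TCR) libraries of mouse CD8+ T cells. They were chosen by their TCRα (TRA) chain alone, as barcodes without a multiplet mark whose V gene was TRAV11 or one of its copies TRAV11D and TRAV11N and whose J gene was TRAJ18. A barcode is a chain of well indices that stands for 1 cell. This rule found 228 barcodes among the 62734 TRA-bearing barcodes of 2 spleen and 5 tumor tables, and the whole series held 253531 barcodes. The thymus tables of the same 7 mice held 3587 barcodes of the same TRA pairing, which served for comparison.

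The study isolated CD8+ T cells from the thymus and spleen of mice without tumors, and from the thymus and tumor of mice bearing B16-OVA or B16-F10 melanomas, with a CD8a+ isolation kit for thymus and spleen and CD8 (TIL) microbeads for digested tumors. Both genotypes of the study, Pdcd1fl/fl and Pdcd1 cKO, carry floxed Pdcd1 alleles on a C57BL/6 background, and in Pdcd1 cKO mice the E8I CD8-Cre transgene deletes them in CD8+ T cells. The labels name 8 multiplexed sublibraries and no condition, so animal and tissue follow the names of the deposited tables, and no genotype or tumor model was assigned to a mouse. Each table is 1 sample of 1 mouse, with no replicate of a table. The spleen came from mouse-155A and mouse-155C, and the tumor from mouse-164B and mouse-164C together with mouse-160A, mouse-160B and mouse-160C.

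iNKT cells recognise lipid antigens presented by the MHC class I-like molecule CD1d and leave the thymus as cells already able to secrete cytokines rapidly. In mice their TRA chain is nearly invariant, a rearrangement of TRAV11 to TRAJ18, and it pairs with TCRβ (TRB) chains that mostly use TRBV13-2, TRBV29 or TRBV1. Most mouse iNKT cells are CD4+ or lack both coreceptors, and they are abundant in liver and scarce among CD8+ T cells.

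The V gene was TRAV11 in 226 of the 228 barcodes and TRAV11N, which the GENCODE annotation lists as a pseudogene, in 2 barcodes of mouse-164B tumor. On GRCm39 Trav11 lies at chr14:53756760-53757316, Traj18 at chr14:54438234-54438299 and the constant gene Trac at chr14:54457978-54461663, all on the plus strand. The germline ends that the rearrangement joins are shown first, 5′ to 3′ on the plus strand. The bases from the conserved cysteine codon to the end of the Trav11 gene model (chr14:53757304-53757316) come first and the whole Traj18 segment second, with capitals for the bases that recur in the most frequent iNKT-like junction.
Trav11 end: TGTGTGGTGGGCG
Traj18: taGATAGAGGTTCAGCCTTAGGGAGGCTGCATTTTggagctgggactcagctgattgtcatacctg

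The TRA junction, the stretch from the conserved cysteine to the conserved phenylalanine, was available as nucleotides for 204 of the 228 barcodes. The other 24 are all of mouse-164C tumor, whose annotation was held only in part. The 204 barcodes carried 21 different junctions, and 4 of these, all of 45 bases, made up 183 barcodes or 89.7% (95% interval 84.7 to 93.5). The 4 junctions differed at 1 position, base 12 counted from the 5′ end, which is shown in capitals.
Junction 1: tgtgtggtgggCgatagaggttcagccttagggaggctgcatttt
Junction 2: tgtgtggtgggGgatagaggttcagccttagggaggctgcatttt
Junction 3: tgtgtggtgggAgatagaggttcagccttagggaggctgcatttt
Junction 4: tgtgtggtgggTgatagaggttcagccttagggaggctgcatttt

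Junction 1 was on 83 barcodes (40.7%, 33.9 to 47.8), junction 2 on 43 (21.1%), junction 3 on 30 (14.7%) and junction 4 on 27 (13.2%). Base 12 is the last base of a glycine codon in all 4, so they encode 1 amino acid sequence, which 207 of all 228 barcodes carried (90.8%, 86.3 to 94.2). Read against the germline ends, the first 13 bases of junction 1 matched Trav11 and the last 33 matched Traj18, with 1 base that either end could supply. Junction 3 was covered by 11 bases of Trav11 and 34 of Traj18. In junctions 2 and 4 base 12 was in neither germline end. Junctions 1, 2 and 4 were found in all 7 tables and junction 3 in 5, being absent from the 24 barcodes of mouse-155A spleen and the 6 of mouse-160A tumor.

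Pooled over tables, thymus barcodes of the same pairing had these junctions in the same order. Single tables departed from it, as junction 2 led in mouse-164B tumor (10 barcodes against 8 of junction 1) and junction 3 exceeded junction 2 in mouse-160B and mouse-160C tumors and in mouse-160A thymus. Among the 3131 with nucleotides, junction 1 was on 37.7%, junction 2 on 25.6%, junction 3 on 16.5% and junction 4 on 12.7%. The 4 together made up 92.5% (91.5 to 93.4) in the thymus. The next most frequent junction was on 3 barcodes of 1 table and on 62 thymus barcodes, and it is shown with a capital for the base that departs from junction 1.
Junction 5: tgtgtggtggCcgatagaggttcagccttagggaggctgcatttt

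The length of the junction set these barcodes apart from chains that use only 1 of the pair of genes. A junction of 15 residues (45 bases) was present in 220 of 228 iNKT-like barcodes (96.5%, 93.2 to 98.5). The remaining 8 had 13 residues (5 barcodes), 14 (2 barcodes) or 16 (1 barcode). In the same tables, 15 residues were found in 29 of 144 barcodes with TRAV11 and another J gene (20.1%, 13.9 to 27.6) and in 274 of 795 with TRAJ18 and another V gene (34.5%, 31.2 to 37.9). Those chains were also diverse, with 125 different amino acid junctions in 144 barcodes and 355 in 795, against 12 in the 228 iNKT-like barcodes. Per table the share of 15 residues was 94.3% to 100% in 6 tables and 4 of 6 barcodes in mouse-160A tumor. Thymus barcodes of the same pairing had 15 residues in 3575 of 3587 (99.7%, 99.4 to 99.8), with 28 different amino acid junctions. The sets with only 1 of the pair of genes each pool several J or V genes, and no other single pair of genes was compared.

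**Figure D1:**
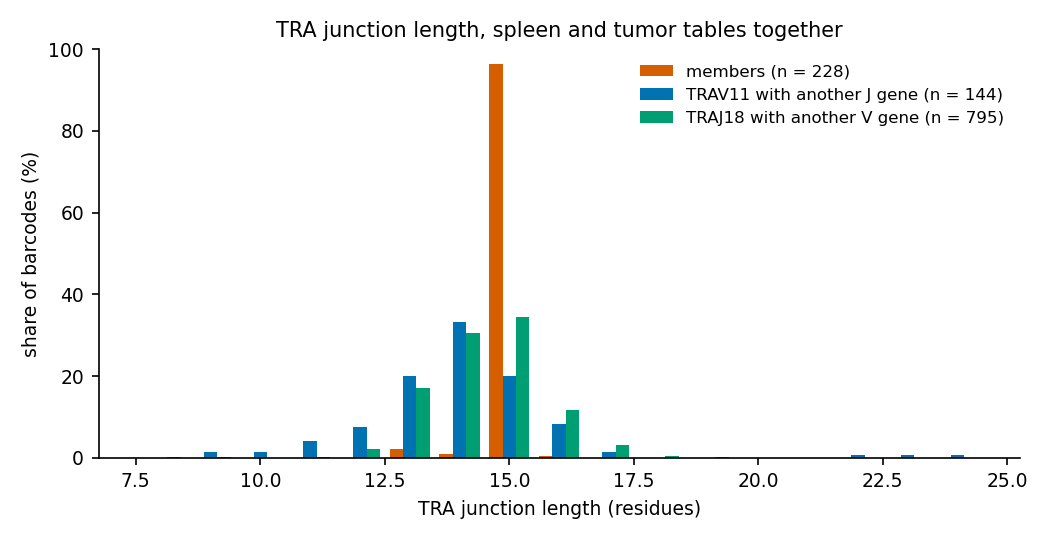
Share of barcodes (y axis, %) by TRA junction length in residues (x axis), pooled over the 7 spleen and tumor tables, for iNKT-like barcodes (members), TRAV11 with another J gene and TRAJ18 with another V gene. Bars of iNKT-like barcodes stand at 15 residues (96.5%), while the other 2 sets spread over neighbouring lengths.

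Before frequencies are given, barcodes shared between libraries were counted, because all tissues were indexed together. The first-round index marks the well and therefore the tissue, and 0 of 253531 full barcodes occurred in more than 1 table. The second-round index, third-round index and sublibrary together took only 66511 values over all barcodes. Of the 228 iNKT-like barcodes, 103 (45.2%, 38.6 to 51.9) agreed in these 3 parts with a thymus barcode that carried TRAV11 and TRAJ18, and differed from it only in the first-round index. Among the 62506 other TRA-bearing barcodes of the same tables the share was 5.51% (5.34 to 5.70). It was also low for chains with only 1 of the pair of genes, at 9 of 144 (6.25%) for TRAV11 with another J gene and 42 of 795 (5.28%) for TRAJ18 with another V gene. As these barcodes do not carry the pairing as their first TRA chain, their shares count agreement of indices, not of chains. Agreement with a thymus barcode of the same TRA V gene, J gene and amino acid junction was found for 3284 of the 62506 others (5.25%, 5.08 to 5.43). For iNKT-like barcodes it was found for 98 of 228 (43.0%, 36.5 to 49.7).

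The match was more frequent in iNKT-like barcodes in each of the 7 tables. It was found for 9 of 24 barcodes in mouse-155A spleen, 8 of 34 in mouse-155C spleen, 3 of 6 in mouse-160A tumor and 31 of 57 in mouse-160B tumor. In mouse-160C, mouse-164B and mouse-164C tumors it was found for 21 of 35, 13 of 31 and 18 of 41. The share in other barcodes of these tables was 4.86% to 6.00%. Most matches crossed animals, as the thymus barcode was of the same mouse in 14 of 103.

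Where both junctions were known, 62 of 72 matching barcodes (86.1%, 75.9 to 93.1) had the same TRA junction nucleotides as the thymus barcode they matched. A junction of an iNKT-like barcode was on 24.8% of thymus barcodes of the pairing on average. Matching barcodes carried 1 TRA transcript in 98 of 103 cases (95.1%) and a TRB chain in 12 (11.7%, 6.17 to 19.5). The 125 barcodes without a match had 1 TRA transcript in 96 cases (76.8%) and a TRB chain in 47 (37.6%, 29.1 to 46.7). Whether the matching barcodes are cells of the spleen or tumor, or thymus barcodes with another first-round index, was not tested. The shares of barcodes are therefore given for all 228 and for these 125. So are the tests over mice of TRB detection, median transcript number and partner V genes. Other values rest on all 228 unless stated. TRA junction 1 was on 43.4% of the unmatched barcodes with nucleotides, and 121 of the 125 (96.8%) had 15 residues.

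**Figure D2:**
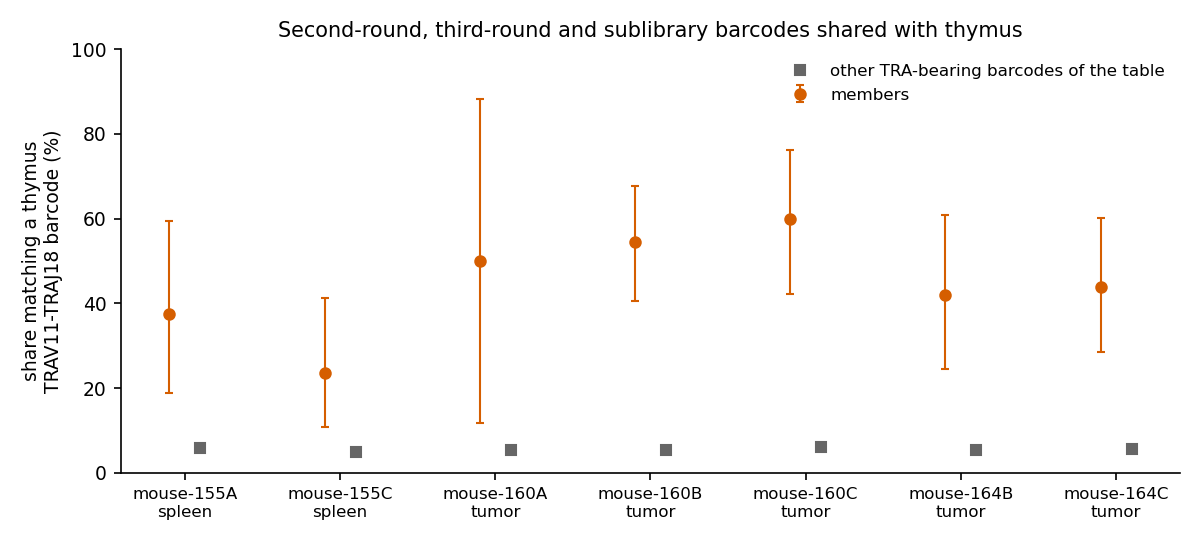
Share of barcodes (y axis, %) that agree in second-round index, third-round index and sublibrary with a thymus TRAV11–TRAJ18 barcode, per spleen or tumor table (x axis). Circles are iNKT-like barcodes with exact 95% intervals, squares the other TRA-bearing barcodes of the table, and the circles (23.5% to 60%) lie above the squares (4.86% to 6.00%) in every table.

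iNKT-like barcodes were rare in every spleen and tumor table. Their share of TRA-bearing barcodes was 0.406% (24 of 5915, interval 0.260 to 0.603) in mouse-155A spleen and 1.13% (34 of 3015, 0.782 to 1.57) in mouse-155C spleen. In tumors it was 0.214% (6 of 2806, 0.0785 to 0.465) in mouse-160A, 0.406% (57 of 14030) in mouse-160B, 0.508% (35 of 6884) in mouse-160C, 0.324% (31 of 9573) in mouse-164B and 0.200% (41 of 20511, 0.143 to 0.271) in mouse-164C. The median over the 7 tables was 0.406%. Mouse-155C spleen was highest, and its interval lay above those of the other 6 tables. The intervals of the others overlapped in part, so their order is not settled beyond counting error except at its ends. There, with all iNKT-like barcodes counted, mouse-164C tumor lay below mouse-160B and mouse-160C tumors.

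Without the barcodes that matched a thymus barcode the shares fell to 0.107% to 0.862%, with a median of 0.188% and mouse-155C spleen still highest (0.564 to 1.26). The interval of mouse-164C tumor (0.0711 to 0.168) then overlapped those of mouse-160B (0.121 to 0.271) and mouse-160C tumors (0.111 to 0.341). In the thymus the same pairing was on 5.79% to 10.9% of TRA-bearing barcodes. The thymus share exceeded that of the second tissue in all 7 mice, by 5.80-fold in mouse-155C to 45.0-fold in mouse-160A with a median of 17.9. With unmatched barcodes only the ratio was 7.58 to 89.9, with a median of 40.6. These are shares of recovered CD8-isolated barcodes, and cells per organ were not counted.

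**Figure D3:**
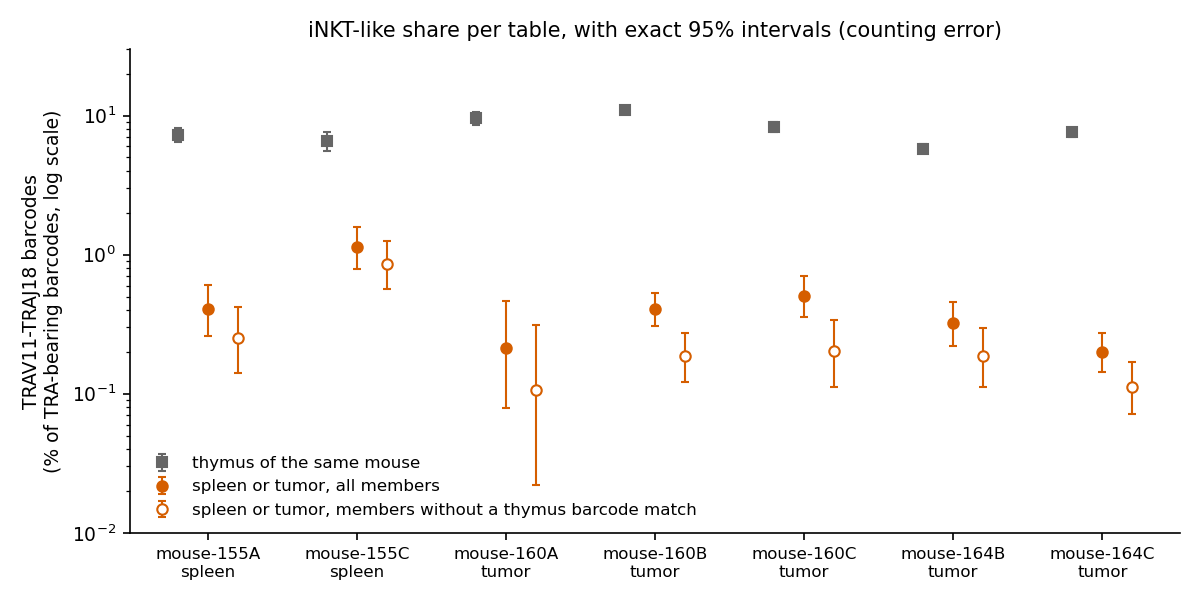
Share of TRA-bearing barcodes with TRAV11 and TRAJ18 (y axis, %, log scale) per mouse (x axis), with exact 95% intervals that cover counting error only. Squares show the thymus (5.79% to 10.9%), filled circles all iNKT-like barcodes of spleen or tumor (0.200% to 1.13%) and open circles those without a thymus barcode match (0.107% to 0.862%).

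With all iNKT-like barcodes counted, TRAV11 was joined to TRAJ18 more often than to all other J genes together in 6 of 7 tables. TRAJ18 took 45.1% (mouse-164C tumor) to 81.0% (mouse-155C spleen) of TRAV11 barcodes in spleen and tumors, and 94.6% to 97.7% in the thymus. The other way round, TRAV11 took 12.7% to 55.7% of TRAJ18 barcodes in spleen and tumors. Unmatched iNKT-like barcodes alone were fewer than TRAV11 barcodes with another J gene in mouse-155A spleen, at 15 against 18. In mouse-160B, mouse-164B and mouse-164C tumors they were also fewer, at 26 against 34, 18 against 21 and 23 against 50. They were more in mouse-155C spleen (26 against 8) and in mouse-160A (3 against 2) and mouse-160C tumors (14 against 11). Mucosal-associated invariant T (MAIT)-like cells, another invariant type defined by TRAV1 with TRAJ33, were at 0 barcodes in all 7 tables, which allows a share of up to 0.0146% to 0.107% per table. TRG, TRD and immunoglobulin chains were not analysed here, as the tables hold TRA and TRB chains.

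The TRA chain of an iNKT-like barcode rested on little RNA. Exactly 1 TRA transcript was counted in 194 of 228 barcodes (85.1%, 79.8 to 89.4), against 35060 of 62506 other TRA-bearing barcodes (56.1%) of the same tables. Per table the share was 75.6% to 93.5% in iNKT-like barcodes and 45.0% to 70.5% in the others. In the thymus the order was the reverse, at 33.1% to 56.4% for the same pairing and 49.8% to 73.2% for the other barcodes. The median count was 1 in all 7 tables for iNKT-like barcodes, and 1 for the others except in mouse-160A tumor, where it was 2. The median of log2 transcripts therefore differed in 1 of 7 mice and by 0.14 ± 0.38 (SD, n = 7) on average, lower in iNKT-like barcodes, which did not pass an exact two-sided sign-flip permutation test over mice (p = 1). The mean of log2 transcripts was lower in iNKT-like barcodes in 7 of 7 mice, with differences from -0.14 in mouse-155C to -1.07 in mouse-160A (exact sign-flip permutation p = 0.015625, the smallest that 7 mice allow). The match moved with these counts, as 98 of 103 matching barcodes (95.1%) and 96 of 125 others of the pairing (76.8%) had 1 transcript, and its part in the result was not tested. With unmatched barcodes only the median of log2 transcripts differed by -0.14 ± 0.38 (SD, n = 7, exact permutation p = 1). A median that is tied in 6 of 7 mice cannot pass this test, so nothing is read from it. The mean of log2 was not tested with unmatched barcodes only. Exactly 1 transcript was on 76.8% of these, against 56.1% of the other TRA-bearing barcodes.

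A TRB chain was found less often on iNKT-like barcodes than on other TRA-bearing barcodes. It was on 7 of 24 in mouse-155A spleen, 11 of 34 in mouse-155C spleen, 0 of 6 in mouse-160A tumor, 10 of 57 in mouse-160B, 7 of 35 in mouse-160C, 7 of 31 in mouse-164B and 17 of 41 in mouse-164C tumor. Other barcodes carried one in 46.0% (mouse-155C spleen) to 64.8% (mouse-164C tumor) of cases. For 0 of 6 the exact interval reached 45.9%. All 7 iNKT-like shares (0% to 41.5%) lay below those of the other barcodes of every table. The difference averaged -35.0 ± 16.3 percentage points (SD, n = 7 mice) and was below 0 in 7 of 7 (exact two-sided sign-flip permutation p = 0.015625, Benjamini-Hochberg adjusted over 4 such tests 0.0417).

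The number of TRA transcripts moved with this difference. Among barcodes with exactly 1 TRA transcript on both sides, the difference was -20.9 ± 6.84 points (SD, n = 7, exact sign-flip permutation p = 0.015625). With at least 2 TRA transcripts on both sides it was -24.5 ± 36.2 points (p = 0.09375 in the exact permutation test), on 1 to 10 iNKT-like barcodes per table. There the iNKT-like share was higher in mouse-155C (75% against 73.5%) and mouse-164B (100% against 88.0%), and lower in the other mice. The lowest was mouse-160A, at 0 of 1 barcode. Without the barcodes that matched a thymus barcode the difference was -24.6 ± 20.5 points (p = 0.015625, exact permutation test). Barcodes with only 1 of the pair of genes carried a TRB chain in 58.3% (TRAV11 with another J gene) and 60.5% (TRAJ18 with another V gene) of cases. In the thymus, the same pairing carried one in 61.9% to 71.1%.

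**Figure D4:**
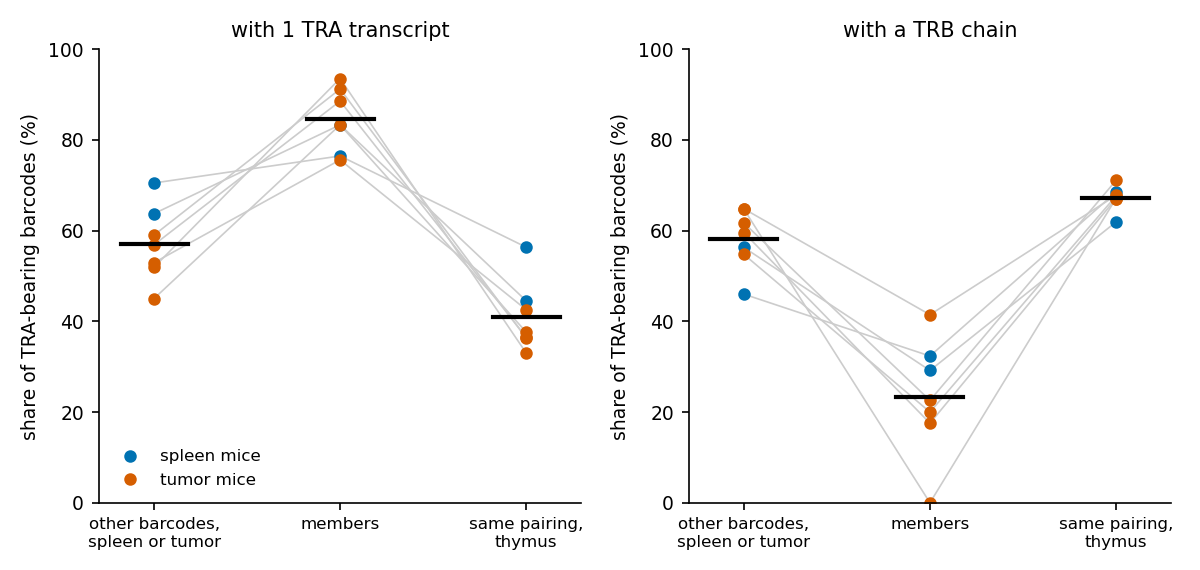
Share of TRA-bearing barcodes (y axes, %) with exactly 1 TRA transcript (left) and with a TRB chain (right) in other barcodes of the spleen or tumor table, iNKT-like barcodes (members) and thymus barcodes of the same pairing. Points are mice joined by grey lines, black bars are means over 7 mice, and iNKT-like barcodes stand highest on the left in every mouse and lowest on the right in every mouse.

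Second TRA chains were on 9 of 228 iNKT-like barcodes (3.95%, 1.82 to 7.36) and on 16.0% of other barcodes. A multiplet mark was found on 11 of the 239 TRAV11–TRAJ18 barcodes present before marked ones were left out (4.60%, 2.32 to 8.09), against 21.8% of the other TRA-bearing barcodes. Among unmarked barcodes, exactly 1 TRA transcript was on 85.1% of iNKT-like barcodes and 56.1% of the others. Neither contrast was taken at equal TRA transcript counts. All 8 sublibraries held iNKT-like barcodes of 6 tables, and the 6 barcodes of mouse-160A tumor lay in 4. In mouse-155A spleen 10 of the 24 came from sublibrary 7, and without that sublibrary the median share over tables was 0.286%.

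The TRB chain was not used to choose these barcodes and was therefore compared with that of the other barcodes of the same tables. Of the 59 TRB-bearing iNKT-like barcodes, 21 used TRBV13-2 (35.6%, 23.6 to 49.1), 7 used TRBV29 (11.9%) and 2 used TRBV1 (3.39%), the V genes of the known iNKT partners. Together these were on 30 of 59 (50.8%, 37.5 to 64.1), against 8595 of 37721 (22.8%) other TRB-bearing barcodes of all 7 tables. Of the other members of the TRBV13 family, TRBV13-1 was on 11 (18.6%, 9.69 to 30.9) and TRBV13-3 on 6 (10.2%, 3.82 to 20.8). Pooled shares in other barcodes, 11.1% and 6.20%, lie within these intervals. For TRBV13-1 the pooled share hides unequal tables. In the 6 tables with TRB-bearing iNKT-like barcodes, other barcodes had a median of 7.85%, and 23.6% in mouse-164B tumor. All 5 genes together were on 47 of 59 (79.7%, 67.2 to 89.0) and on 15106 of 37721 other barcodes (40%). TRBV14 was on 3 (5.08%), and all other genes were on 1 or 2 barcodes each.

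The partner V genes were used more in all 6 mice with a TRB-bearing iNKT-like barcode. They were on 5 of 7 such barcodes in mouse-155A spleen, 5 of 11 in mouse-155C spleen, 4 of 10 in mouse-160B tumor, 4 of 7 in mouse-160C tumor, 4 of 7 in mouse-164B tumor and 8 of 17 in mouse-164C tumor. These shares, 40% to 71.4%, did not overlap with those of the other barcodes of the same 6 tables, 19.0% to 25.3%. Mouse-160A tumor, which had no TRB-bearing iNKT-like barcode, is not in this range. The difference averaged 29.9 ± 11.6 percentage points (SD, n = 6), with an exact two-sided sign-flip permutation p of 0.03125, the smallest that 6 mice allow, and 0.0417 after adjustment over 4 tests. Without sublibrary 6 it was 25.2 points (p = 0.0625, exact permutation test).

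The difference was as large in barcodes without a thymus match, at 30.6 ± 16.4 points (SD, n = 6), with 25 of 47 using a partner gene (53.2%, 38.1 to 67.9). It was 48.5 ± 23.3 points (n = 6) when both sides had at least 2 TRA transcripts (exact permutation p = 0.03125 in both cases). The latter mean gives each mouse equal weight, on 1 (mouse-155A) to 8 (mouse-164C) TRB-bearing iNKT-like barcodes. Pooled, a partner gene was on 13 of 23 with at least 2 TRA transcripts (56.5%, 34.5 to 76.8) and on 17 of 36 with 1 (47.2%, 30.4 to 64.5). Pooled shares were lower for chains that had only 1 gene of the iNKT TRA pairing. A partner gene was on 13 of 84 barcodes with TRAV11 and another J gene (15.5%, 8.51 to 25) and on 103 of 481 with TRAJ18 and another V gene (21.4%, 17.8 to 25.4).

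TRBV13-2 carried most of the difference. Its share was 57.1% in mouse-155A spleen, 45.5% in mouse-155C spleen, 30% in mouse-160B tumor, 14.3% in mouse-160C tumor, 42.9% in mouse-164B tumor and 29.4% in mouse-164C tumor. Other barcodes of these 6 tables used it in 8.24% to 12.3%, below every iNKT-like value. The mean difference was 25.6 ± 15 points (SD, n = 6), higher in 6 of 6 mice (exact sign-flip permutation p = 0.03125, Benjamini-Hochberg adjusted 0.0898 over all 23 TRBV genes), and 22.2 points without sublibrary 2 (exact permutation p = 0.09375). With multiplet-marked barcodes kept it was 24.2 points (exact permutation p = 0.0625), and with unmatched barcodes only it was 26.3 points (exact permutation p = 0.03125).

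TRBV29 was higher in 4 of 6 mice, with a mean difference of 4.50 ± 12.9 points (SD, n = 6, exact permutation p = 0.4375). TRBV13-1 was higher in 4 of 6, by 7.84 ± 17.9 points on average (p = 0.40625, exact permutation), and reached 5 of 11 barcodes in mouse-155C spleen. TRBV13-3 was higher in 3 of 6 (1.87 ± 10.7 points) and TRBV14 in 3 of 6 (-0.658 ± 6.90 points). TRBV1 was on 1 barcode each in mouse-160C and mouse-164B tumors and on 0 in the other 4 tables, and its mean difference was -0.162 ± 7.43 points. None of these 5 genes passed the test at these cell numbers.

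Across all 23 TRBV genes 0% passed an adjusted p of 0.05 and 34.8% (8 genes) an unadjusted one. Of these 8, TRBV13-2 was higher in iNKT-like barcodes, and 7 were genes that no iNKT-like barcode used, TRBV2, TRBV3, TRBV12-2, TRBV15, TRBV20, TRBV23 and TRBV30. A gene at 0 of 59 may still have a share of up to 5.08%, and it lies below the other barcodes in each table by construction, so nothing is read from these 7. With 6 mice and 23 genes the adjusted p of 1 gene alone could not have passed.

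**Figure D5:**
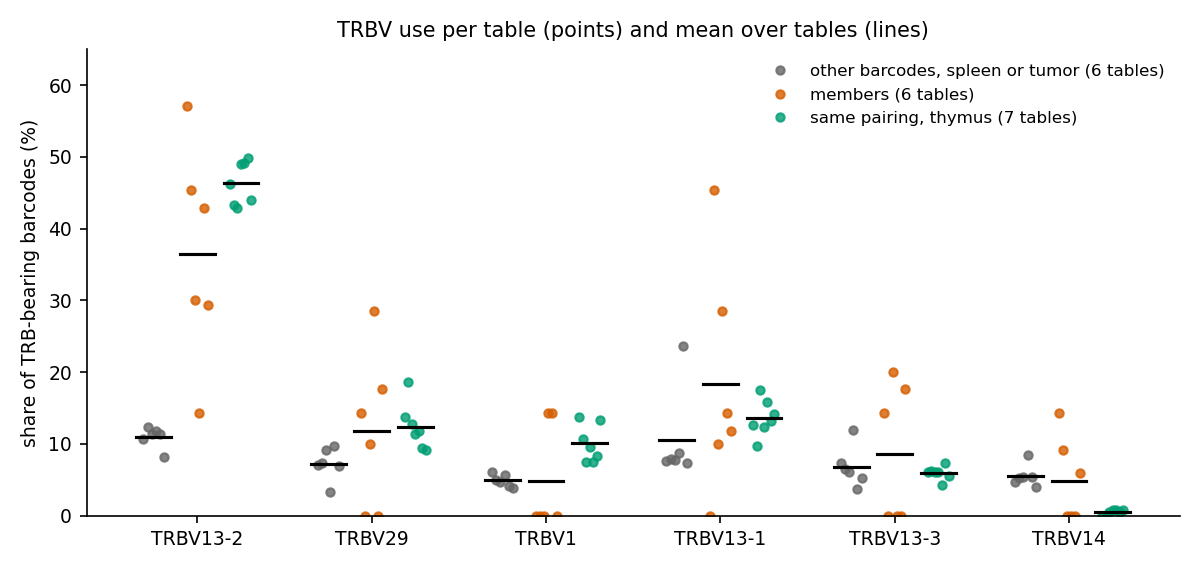
Share of TRB-bearing barcodes (y axis, %) that used each named TRBV gene (x axis) in other barcodes of 6 spleen and tumor tables, iNKT-like barcodes (members) of these tables and thymus barcodes of the same pairing in 7 tables. Points are tables and black lines their means, and for TRBV13-2 the points of iNKT-like barcodes (14.3% to 57.1%) all lie above those of the other barcodes (8.24% to 12.3%).

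On GRCm39 the 3 partner genes lie apart on the plus strand of chromosome 6, Trbv1 at chr6:40868163-40868819, Trbv13-2 at chr6:41098330-41098766 and Trbv29 at chr6:41248328-41248815. Trbv13-1 (chr6:41092941-41093402) and Trbv13-3 (chr6:41107081-41107519) flank Trbv13-2.

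Partner use was also set against the thymus of the same mouse, to ask whether the same pairing carried the same TRB chains in both tissues. In the thymus 1660 of 2426 TRB-bearing barcodes of the pairing used TRBV13-2, TRBV29 or TRBV1 (68.4%, 66.5 to 70.3), and 66.5% to 73.6% per table of these 6 mice. The spleen or tumor share was lower in 6 of 6 mice, from -2.20 points in mouse-155A to -30 points in mouse-160B. The mean difference was -16.7 ± 10.7 points (SD, n = 6, exact two-sided sign-flip permutation p = 0.03125, adjusted 0.0417 over 4 tests). It was -16.1 ± 16.0 points without the barcodes that matched a thymus barcode (p = 0.03125, exact permutation).

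This difference was less firm than that against other barcodes. It was -9.21 points without sublibrary 1 (exact permutation p = 0.15625), and -16.7, -16.0 and -17.9 points without sublibrary 2, 3 or 7 (p = 0.0625 each, exact permutation). With at least 2 TRA transcripts on both sides it was 0.157 points (n = 6, exact permutation p = 0.96875), on 1 to 8 TRB-bearing spleen or tumor barcodes per mouse. By gene, TRBV13-2 was on 47.2% of thymus barcodes, TRBV29 on 11.3%, TRBV1 on 9.93%, TRBV13-1 on 13.8%, TRBV13-3 on 5.94% and TRBV14 on 0.618%. These 6 genes had their spleen and tumor shares at 35.6%, 11.9%, 3.39%, 18.6%, 10.2% and 5.08%, with no test of single genes between tissues.

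The TRBJ genes most used by iNKT-like barcodes were TRBJ2-7 (9 of 59, 15.3%, 7.22 to 27) and, with 7 each (11.9%), TRBJ1-1, TRBJ2-1, TRBJ2-4 and TRBJ2-5. Other barcodes used TRBJ2-7 in 21.1%, TRBJ1-1 in 10.5%, TRBJ2-1 in 12.3%, TRBJ2-4 in 6.65% and TRBJ2-5 in 10.3%, all within the intervals of the iNKT-like shares. The TRB junction had a median of 14 residues (quartiles 13 and 15) in iNKT-like barcodes, in other barcodes and in the thymus pairing. A difference in TRB length or in these J genes was not detectable in these values of 59 barcodes, which were pooled over mice and not tested over mice.

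No TRB chain was found on more than 1 iNKT-like barcode of a table. The 59 TRB chains, taken as V gene, J gene and junction, were 59 different ones. For 10 of 59 (16.9%, 8.44 to 29.0) the chain was also on another barcode of the same table, against 17143 of 37721 (45.4%) other TRB-bearing barcodes. By table these were 1 of 7 in mouse-155A spleen, 0 of 11 in mouse-155C spleen, 5 of 10 in mouse-160B, 1 of 7 in mouse-160C, 0 of 7 in mouse-164B and 3 of 17 in mouse-164C tumor. The share in other barcodes was 9.83% to 14% in the 2 spleen tables and 37.6% to 84.6% in the tumor tables named. It was below that of iNKT-like barcodes in mouse-160B tumor (37.6% against 50%) and mouse-155A spleen (9.83% against 14.3%), and above it in the other tables named.

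The repeated chain with the highest count was on 952 barcodes of mouse-164C tumor. Partner V genes were on 3 of these 10 (30%, 6.67 to 65.2) and on 27 of the 49 chains found on no other barcode (55.1%, 40.2 to 69.3). With the repeated chains left out, the partner difference against other barcodes was 36.1 ± 14.4 points (SD, n = 6, exact sign-flip permutation p = 0.03125).

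TRB junctions were compared with those of the thymus pairing. Nucleotides were known for 50 of the 59, and 1 of them (2.00%, 0.0506 to 10.6) was also on a thymus barcode of the same pairing in the same mouse. Against the thymus of the other 6 mice 0 of 300 combinations of barcode and mouse were shared, which allows up to 1.22% by the exact interval. With amino acid sequences the counts were 1 of 59 and 1 of 354, the second for a TRBV29 chain on 952 barcodes of mouse-164C tumor.
The shared TRB junction belonged to a barcode of mouse-155C spleen with TRBV13-2 and TRBJ2-5, 2 TRA and 7 TRB transcripts and no thymus barcode match, and it is shown whole.
TRB junction: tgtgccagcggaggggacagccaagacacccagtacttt

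Its TRA chain was junction 1, and its TRB chain was on 1 barcode of the spleen table and on 1 thymus barcode of the pairing in mouse-155C. The rate of overlap in own mice and that in other mice were not distinguishable, as 1 shared junction sets the first.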

How the data were processed

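The barcode table of each tissue and mouse gives, as deposited, whole-number counts of reads and of transcripts for the TRA and TRB chain of each barcode, with V, J and junction and a multiplet mark. The authors made these counts with the Parse Biosciences TCR pipeline from Evercode TCR libraries. GRCm39 stands in the submitters' processing notes. Not given in the sources used here were the pipeline's version and its V(D)J reference. Nucleotide junctions came from the deposited annotation tables, of which 3 of 14 were held only in part (92.6% of barcodes for mouse-160B thymus, 40.5% for mouse-164B thymus and 29.9% for mouse-164C tumor). Deposited clonotype tallies were not used.

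Allele suffixes of V and J names were removed, and barcodes marked as multiplets were left out, with no further doublet call. No filter on counts was applied, and TRA-bearing barcodes per spleen or tumor table ranged from 2806 to 20511. The labels put the 8 sublibraries in no group, so each table was described on its own and no genotype was compared. Shares carry exact (Clopper-Pearson) 95% intervals, which cover counting error only, and for a count of 0 the limit is 3 counts of the total unless an interval is named. Differences between iNKT-like and other barcodes were taken within a mouse and tested by exact two-sided sign-flip permutation over mice, with Benjamini-Hochberg adjustment over 4 tests or over all TRBV genes. A match to the thymus means the same second-round index, third-round index and sublibrary as a thymus barcode with TRAV11 and TRAJ18, multiplets included.

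Gene positions and germline bases came from GRCm39 with GENCODE annotation. The genes named were TRAV11 with its copies and TRAJ18, the TRB partner genes TRBV13-2, TRBV29 and TRBV1 with TRBV13-1 and TRBV13-3 of the TRBV13 family, other TRBV genes on at least 5% of TRB-bearing iNKT-like barcodes, the most used TRBJ genes, the most frequent TRA junctions and TRB junctions shared with the thymus. Where TRBJ genes tied, all tied genes are given. A further TRA junction that this rule names is not reported here. Alternatives were a minimum of 2 TRA transcripts, no second TRA chain, no thymus match, multiplets kept, other denominators and units, and each mouse or sublibrary left out. Further ones, equal TRA transcript counts on both sides and chains on no other barcode, were added after seeing the data. The barcodes and lists were chosen with earlier results of these data known. Python 3.11.15, pandas 2.3.3, NumPy 2.4.6, SciPy 1.17.1 and Matplotlib 3.10.9 were used.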

Additional observations from a re-analysis of the deposited data

Results flagged for a closer look

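The share of iNKT-like barcodes in mouse-155C spleen, 1.13% (34 of 3015), stood apart from the other 6 tables. The gap to the next value, 0.508% in mouse-160C tumor, was 0.667 of the whole range, beyond the 95% limit of Dixon's ratio for 7 values. Without barcodes that matched a thymus barcode it was again apart, at 0.862% against 0.254% in mouse-155A spleen (ratio 0.806). This table also had the lowest share of iNKT-like barcodes with a thymus match (23.5%) and the second lowest depth of TRA-bearing barcodes, and whether either bears on the share was not tested. About 5% of such sets of values are singled out by chance.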

How the results depend on the processing

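Of 55 combinations of a result with an alternative other than leaving out a mouse or sublibrary, 40 kept direction and side of the threshold or stayed within the spread. Requiring at least 2 TRA transcripts in iNKT-like barcodes moved most values. The median share became 0.0488%, the thymus ratio 90.1, the share of junction 1 32.3%, the difference in TRB detection 1.03 points, the partner difference from the thymus 0.157 points and the shared TRB junction 0%, and 16 TRBV genes then passed the adjusted threshold, since few barcodes were left and genes absent from them lie lower in every table. Without thymus-matched barcodes the thymus ratio was 40.6. With multiplets kept the partner difference from the thymus was -16.2 points (exact permutation p = 0.0625). In the 3 tables with at least 10 TRB-bearing iNKT-like barcodes the partner differences were 21.2 points from other barcodes and -25.5 points from the thymus, where p cannot fall below 0.25 in the exact permutation test. Junctions compared by amino acids put 90.8% on 1 sequence. Read counts in place of transcripts gave a median log2 difference of -1.73, and the mean of log2 gave -0.60, both past the threshold (exact permutation p = 0.015625). With at least 2 TRA transcripts on both sides, an alternative chosen after seeing the data, TRB detection differed by -24.5 points. TRBV1 turned to 0.631 points with at least 2 transcripts and 0.234 without second TRA chains, and TRBV14 to 0.156 with each TRB junction counted once and 0.127 in the 3 larger tables. The cause was not tested.

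Leaving out each mouse or sublibrary gave 25.2 to 36.5 points for the partner difference from other barcodes, -22.0 to -9.21 for that from the thymus, -38.5 to -30.0 for TRB detection, 0.286% to 0.422% for the median share and 0% to 2.70% for the shared TRB junction. The differences in TRBV13-3 (-0.543 to 4.63 points), TRBV14 (-2.71 to 0.901) and TRBV1 (-2.21 to 1.77) changed sign among these fits. Leaving out 1 of 6 mice cannot give p below 0.0625, so the loss of the threshold there says nothing on stability. No adjusted TRBV call was made in any of these fits, and 0 to 11 genes had an unadjusted p under 0.05. All tests over mice were paired by mouse, through the table names. With 59 TRB-bearing barcodes, a share per table rests on 7 to 17 barcodes, which limits single genes.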

Other observations

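Besides the 228 barcodes, 17 barcodes of the spleen and tumor tables carried TRAV11 with TRAJ18 only as their second TRA chain, at 0 to 6 per table. In the thymus tables these numbered 111. A MAIT-like barcode with TRAV1 and TRAJ33 was found once over all 14 tables, in mouse-160B thymus.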
